A study of Mus musculus with 4 samples.

Results

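The liver-enriched transcription factors described here are Hnf4a, Foxa1, Foxa2, Foxa3, Cebpa, Cebpb, Onecut1 and Prox1, 8 of the 36161 gene names on the array. They were taken by gene name alone, with every non-control probe of each, which gave 9 of 55681 probes: 7 genes had 1 probe and Foxa2 had 2. The samples were total RNA of whole liver from inbred mice labelled C57BL/6J and Embryonic Day 20, labelled with Cy3 and read on 4 single-colour Agilent arrays. Each group had 1 array: female microsomic (MF) and female control (CF), male microsomic (MM) and male control (CM). Microsomic (M) mice were those with a low weight for their gender at birth, and control (C) mice had a weight near the colony mean; no allele, transgene or treatment separated them. The methods of the study describe newborn C57BL/6 N mice and 3 replicates per group, which differs from the labels, and whether an array holds RNA of 1 animal or of a pool is not given in the sources used here. The question of the comparison was how the liver transcript profile at birth differs between small and normal mice of the same genotype.

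Hepatocyte identity is held by a small network of transcription factors that bind each other's promoters as well as those of the genes for plasma proteins, lipid transport and glucose production. HNF4A is a nuclear receptor, the FOXA proteins are forkhead factors that open closed chromatin, the C/EBP proteins are leucine zipper factors, ONECUT1 (also named HNF6) is a cut-homeodomain factor and PROX1 is a homeobox factor that also acts as a corepressor. In the perinatal liver this network accompanies the change from a blood-forming organ to a metabolic one. Several of its members are also made outside hepatocytes: Hnf4a and the Foxa genes in gut epithelium, the Cebp genes in myeloid cells, Onecut1 in bile duct and pancreas, and Prox1 in lymphatic endothelium and heart muscle.

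The scale used throughout is the log2 processed signal of a probe minus the 75th percentile of its array, so that 0 is the signal of the 75th percentile spot. In signal units that percentile was 893 (MF) and 925 (MM) for the M arrays and 676 (CF) and 628 (CM) for the C arrays, and between 56.1% and 65.3% of spots were well above background. There are no replicate arrays, so no difference between a pair of arrays carries a p-value. As a technical measure, the SD of a log2 difference between replicate spots of 1 probe was 0.41 for MF minus CF and for MM minus CM, 0.44 for CM minus CF and 0.39 for MM minus MF. The M arrays lie in one column of the slide and the C arrays in another, so position and group cannot be told apart. Of the hepatocyte markers, 11 of 11 measured genes cleared the background on each of the 4 arrays. Markers of other organs set 2 arrays apart. Of 15 intestine markers, 14 were well above background on MF and 8 or 9 on each of the other arrays, and the transcripts of Cdx2, Cdh17, Isx and Alpi (named after their values were seen) were well above background on MF alone, whereas Muc2 was so on none. The 12 heart muscle markers summed to 234 times the 75th percentile signal on CF, against 2.74 to 7.09 times on the other arrays.

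The sequences shown are stretches of 30 bases of the array probes that carry the findings below, taken from the probe annotation of the array. The first 4 are the opening bases of the probes for the 3 genes that differed the same way by over 1.5-fold in both genders, and for Cebpa. The last pair belongs to the neighbouring Foxa2 probes, which did not give the same difference in females, with the 5 bases that they share in capitals.
Hnf4a: ggggtaaaaaagagaaaaagccctcaaaaa
Foxa3: tgaccttttgagtatgtgacagaacacatc
Cebpa: ttttgttttggttttgctctgattcttgcc
Prox1: acgtttgttttcttagctggatttttgtgt
Foxa2 A_55_P2134236, end: gctttatttatggcttataaatgtgTGTTC
Foxa2 A_55_P2067533, start: TGTTCtggctagaatggccagaattccaca

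By the array annotation (mm9) the probes lie at chr2:163398548-163398607 on the plus strand for Hnf4a, chr7:19599053-19599112 on the minus strand for Foxa3, chr7:35906517-35906576 on the plus strand for Cebpa and chr1:191945785-191945844 on the minus strand for Prox1. The Foxa2 probes, both of 60 bases, lie at chr2:147868669-147868728 and chr2:147868614-147868673 on the minus strand. Foxa1 was read at chr12:58641764-58641823 on the minus strand, Cebpb at chr2:167515828-167515887 and Onecut1 at chr9:74710921-74710980, the last pair on the plus strand. No annotation of that build was used, so exon and UTR are not given.

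Promoter windows of the same 4 genes are shown for the motifs of the network itself. Each is the 150 bases before a RefSeq start (GRCm38.p6), written 5′ to 3′ on the strand of the gene, with motif matches in capitals. All 8 genes matched the reference, with 12 windows among them. The windows printed lie at chr2:163547005-163547154 on the plus strand (Hnf4a, the downstream of its starts), chr7:19023540-19023689 on the minus strand (Foxa3), chr7:35119143-35119292 on the plus strand (Cebpa) and chr1:190170828-190170977 on the minus strand (Prox1).
Hnf4a: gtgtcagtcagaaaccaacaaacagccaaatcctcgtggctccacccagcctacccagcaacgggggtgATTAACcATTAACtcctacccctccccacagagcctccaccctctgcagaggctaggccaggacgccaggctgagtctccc
Foxa3: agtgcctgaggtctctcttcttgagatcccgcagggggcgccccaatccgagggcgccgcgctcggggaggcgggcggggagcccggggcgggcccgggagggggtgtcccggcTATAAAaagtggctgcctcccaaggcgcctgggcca
Cebpa: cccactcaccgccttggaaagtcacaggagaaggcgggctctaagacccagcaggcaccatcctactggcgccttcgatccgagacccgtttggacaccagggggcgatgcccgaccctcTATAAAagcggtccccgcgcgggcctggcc
Prox1: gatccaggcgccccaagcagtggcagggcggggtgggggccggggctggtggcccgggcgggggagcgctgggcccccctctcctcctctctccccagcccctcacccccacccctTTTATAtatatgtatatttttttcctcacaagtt

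The motifs searched on both strands were TATAAA, the forkhead words TGTTTAC and TGTTTGC, the C/EBP word TTGCNNAA, the ONECUT word ATCAAT, the nuclear receptor word AGGTCA and the HNF1 word GTTAAT, and none of the matches printed overlaps another. In the windows shown, TATAAA stood from -36 to -31 relative to the start of Foxa3 and from -30 to -25 in Cebpa, and on the opposite strand from -34 to -29 in Prox1. In all, 5 of the 12 windows of 300 bases held it, against 13.6% of 32851 promoter windows of that length. The Hnf4a window held GTTAAT in 2 places on the opposite strand, and 7.10% of all windows held that word at least in 1 place. TGTTTAC was found in 1 member window (3.65% of all windows), TGTTTGC in 1 (5.07%), ATCAAT in 2 (7.54%), and neither TTGCNNAA (10.8%) nor AGGTCA (16.3%) in any. These are letter matches in these windows and say nothing of binding.

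Hnf4a, the nuclear receptor at the centre of the network, was higher on the M array than on the C array of each gender on this scale. Its probe read 6.13 on CF and 6.77 on MF, and 5.80 on CM and 6.81 on MM. The M arrays lay within the spot SD of each other, as did the C arrays. The log2 difference was 0.64 for MF minus CF (1.56-fold) and 1.01 for MM minus CM (2.01-fold). The female difference depends on the scaling, since quantile normalization gave -0.09 and normexp with quantile normalization 0.18. In whole liver RNA, more cells of a type and more RNA per cell cannot be told apart.

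The Foxa genes did not follow a common pattern. Foxa3, the member of this family that is abundant in mature hepatocytes, read 1.44 on CF and 1.56 on CM, 2.41 on MM and 3.76 on MF. The C arrays lay within the spot SD of each other, MM stood above them and MF stood highest. MF exceeded CF by 2.31 on the log2 scale, a 4.97-fold difference that placed it at the 98.3rd percentile of all probes compared, and MM exceeded CM by 0.85, or 1.80-fold.

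Foxa1 and Foxa2 are the family members that act from the earliest hepatic stage of the foregut endoderm. Foxa1 read 0.45 on CF and 0.31 on MF, and 0.88 on CM and 1.68 on MM. MM stood above the other arrays, among which neighbouring values lay within the spot SD. The difference of MM minus CM was 0.80 (1.74-fold), and that of MF minus CF was -0.14. For Foxa2, probe A_55_P2134236 read 2.30 on CF, 1.47 on MF, 1.64 on CM and 2.57 on MM. Probe A_55_P2067533 read 0.996 on CF, 0.92 on MF, 0.43 on CM and 1.83 on MM. The 2 probes thus put MM above CM, by 0.93 (1.91-fold) and 1.40 (2.65-fold). In females they differed: the first put MF below CF by 0.83 on the log2 scale (1.78-fold lower) and the second gave -0.07. With normexp and quantile normalization probe A_55_P2134236 gave 0.14 in males and -0.58 in females, both under 1.5-fold, and its female difference was -0.43 unscaled. The mean of both probes gave -0.45 in females.

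Cebpa, which drives hepatocyte maturation and granulocyte formation, had a pattern much like that of Foxa3. It read 2.73 on CF and 3.01 on CM, 3.59 on MM and 4.75 on MF. MF stood far above the rest and the C arrays lay within the spot SD of each other. The log2 difference was 2.02 in females (4.04-fold, the 97.6th percentile of all probes) and 0.58 in males, where 1.49-fold was just under the threshold of 1.5-fold. With median centring the male difference was 0.82, with normexp and quantile normalization 1.12 and unscaled 1.14, all past it. It was under 1.5-fold in the rest of the 9 settings, at 0.50 with quantile normalization and 0.45 with the trend of array position removed. Cebpb, a factor of the acute phase response and of the regenerating liver, read 5.45 on CF and 5.88 on MF, and 4.41 on CM and 4.52 on MM. Here the arrays separated by gender, with the females above the males. M exceeded C by 0.43 in females (1.35-fold), just outside the spot SD of 0.41, and by 0.11 in males (1.08-fold). With quantile normalization the female difference of Cebpb was -0.16.

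Onecut1, which acts in hepatoblasts and in bile duct formation, was dim, with signals of 84.9 units on MF, 106 on MM and 93.6 on CM, and 37.3 on CF, where it was not well above background. Its scaled values were -3.39, -3.13, -2.75 and -4.18 in the same order. MF read 1.72-fold above CF, measured against the signal of the probe itself on CF, which is neither a firm value nor a bound. With normexp and quantile normalization the difference was 0.27 on the log2 scale, under 1.5-fold. MM was below CM by 0.38 on the log2 scale (1.30-fold lower), within the spot SD.

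Prox1, which is needed for hepatocyte migration in the liver bud, was lower on the M array of each gender. It read -2.44 on CF and -3.14 on MF, and -0.44 on CM and -1.37 on MM. The males stood above the females, and all neighbouring values differed by more than the spot SD. MF was 1.63-fold lower than CF (log2 difference -0.70) and MM 1.91-fold lower than CM (-0.93). The female difference was under 1.5-fold with quantile normalization (-0.57), with normexp and quantile normalization (-0.26) and unscaled (-0.30), and the male difference unscaled (-0.37).

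**Figure D1:**
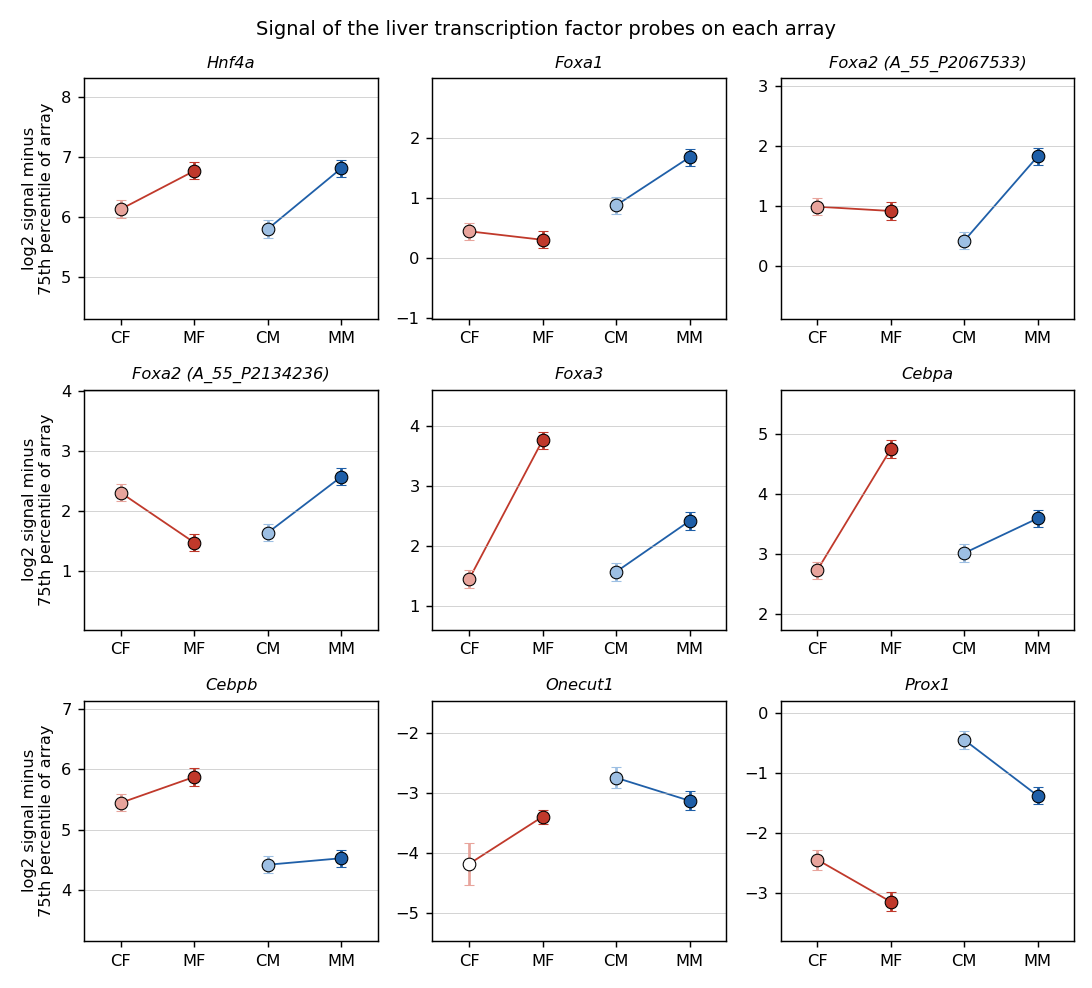
Scaled log2 signal of the 9 probes on the control and microsomic female (CF, MF) and male (CM, MM) arrays, 1 array per point, each panel spanning 4 log2 units; bars are the error of the single value given by the scanner software, and an open point is not well above background. Foxa3 and Cebpa are highest on MF, and Hnf4a is higher and Prox1 lower on the M array of each gender.

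Markers of other tissues differed between the same arrays. Over all genes read by their brightest probe, 19.9% were higher and 21.1% lower by over 1.5-fold in females. In males the shares were 17.7% and 23.1%, and both pairs stand beside the counts of every marker list below. Of the intestine markers compared, 11 of 14 were higher on MF by over 1.5-fold, with a median log2 difference from CF of 4.31, while in males 2 of 10 were higher and 4 lower, with a median of -0.10. Fabp2, the intestinal fatty acid binding protein, was 8.85-fold higher on MF than on CF and 5.22-fold higher on MM than on CM. Vil1 was 20.9-fold higher on MF than on CF but 2.37-fold lower on MM than on CM. Tff3 was within 1.5-fold in both genders, and Guca2a was within it in females and 1.68-fold higher on MM than on CM. Of the myeloid markers, 14 of 16 were higher on MF than on CF (median 0.96) and 1 of 16 higher and 2 lower on MM than on CM (median 0.06). Their summed level was 2230 times the 75th percentile signal on MF and between 1066 and 1408 on the other arrays. The part of gut or myeloid RNA in the values of Hnf4a, Foxa3 and Cebpa on MF was not tested. The heart muscle markers were lower on MF than on CF in 11 of 12 genes (median -7.94). They were lower on MM than on CM in 8 of 12 (median -1.58), and Prox1 was lower in both comparisons as well. Between the controls the markers summed to 234 times the 75th percentile signal on CF and 7.09 times on CM. Prox1 read -2.44 on CF and -0.44 on CM. The part of heart muscle RNA in the Prox1 values was not tested.

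Of the hepatocyte markers, 2 of 11 were higher and 1 lower on MF than on CF, with a median of 0.22. In males 0 of 11 were higher and 6 lower, with a median of -0.61. Trf, transferrin, was 2.17-fold lower on MM than on CM, on arrays where Hnf4a was 2.01-fold higher on MM. Biliary and hepatoblast markers were higher on MF than on CF in 5 of 9 genes (Epcam 4.33-fold) and lower in 1, and were higher on MM than on CM in 1 of 9 and lower in 4. Exocrine pancreas markers were higher in 6 of 15 and lower in 3 of 15 in females, and higher in 3 and lower in 9 of 15 in males, with Pnlip well above background on none of the arrays. Erythroid markers (higher in 2 and lower in 2 of 11 in females, 0 and 3 of 11 in males) and endothelium markers (0 and 2 of 11 in females, 0 and 0 of 11 in males) had medians between -0.54 and -0.09.

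Over the 9 probes, 4 were higher on MF than on CF and 2 lower by more than 1.5-fold. Over all probes compared, 19.1% were higher and 22.3% lower in that comparison. In males 5 of 9 were higher on MM than on CM and 1 lower, against 17.9% and 23.3% of all probes. The median log2 difference of the 9 probes was 0.43 in females and 0.80 in males, and that of all probes was -0.05 and 0. Over all probes with both arrays of the pair above background it was -0.14 and -0.07. Hnf4a and Foxa3 were past 1.5-fold upward in both genders and Prox1 downward on this scale, of which Foxa3 alone stayed past 1.5-fold in both genders under every scaling tried. These comparisons share no array. Under other scalings the split changed. With the deposited values unscaled it was 5 higher and 0 lower in females and 7 higher and 0 lower in males. Unscaled, 44.9% of all probes in females and 57.4% in males were past 1.5-fold, and 77.8% and 77.6% of those were higher. With normexp background correction and quantile normalization the split was 2 and 0 in females, where 28.9% of all probes were past 1.5-fold.

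**Figure D2:**
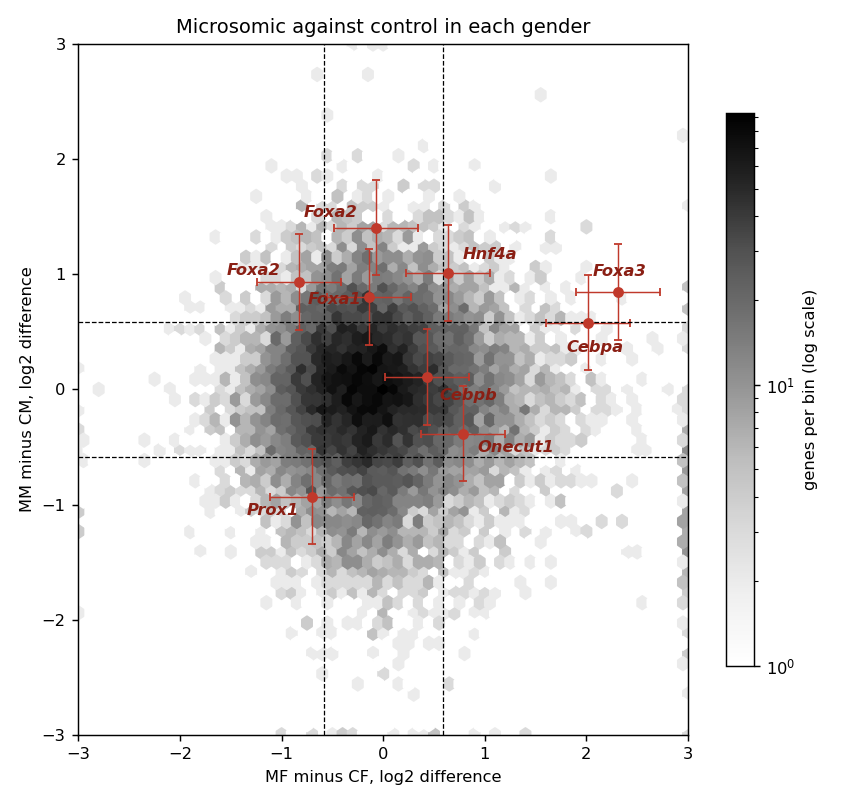
Log2 difference of MF minus CF against that of MM minus CM for the 9 probes (red, bars are the SD of a difference between replicate spots) over 19303 genes well above background on all 4 arrays (grey, genes per bin on a log scale, values beyond 3 drawn at the edge). Dashed lines mark 1.5-fold, and the Onecut1 value in females rests on a CF signal not well above background. Foxa3 and Cebpa stand at the right edge of the cloud, and Hnf4a and Foxa3 lie past 1.5-fold in both genders.

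When the genders were used as the replicates of M and C in limma, no probe passed an adjusted p of 0.05, neither among the 8 tested probes of these genes nor among all 25045 (0%). A t-test of the M against the C arrays, with the genders pooled, called 0 probes after Benjamini-Hochberg adjustment. The methods name a t-test within each gender, which 1 array per group does not allow. At an unadjusted p under 0.05 limma called 1125 probes, 4.49% of those tested, and 2 of these 8. The 2 were Foxa3, with M minus C of 1.58 ± 0.49 (SE, limma adjusted p = 0.998), and Cebpa, with 1.30 ± 0.49 (SE, limma adjusted p = 0.998). Each was higher on the M array in both genders. Prox1 gave -0.82 ± 0.42 (SE, limma adjusted p = 0.998).

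Between the control arrays 4 of the 9 probes were past 1.5-fold, where 47.1% of all probes were. With 1 array per group, gender and array cannot be told apart. Of the 9 probes, 2 were higher on CM than on CF and 2 lower, where 27.9% of all probes were higher and 19.1% lower. Prox1 was 3.99-fold higher on CM, Cebpb 2.05-fold lower and Foxa2 probe A_55_P2134236 1.58-fold lower. Onecut1 read 2.70-fold higher on CM, against a CF signal that was not well above background. Centring on the median instead gave 2 higher and 4 lower, quantile normalization 2 and 1, and both normexp with quantile normalization and the unscaled values 2 and 3. Between 47.9% and 55.7% of all probes were past 1.5-fold under these settings. Between the M arrays, 4 probes were higher on MM than on MF and 3 lower, against 31.6% and 19.2% of all probes. Prox1 was 3.40-fold higher on MM, Foxa1 2.59-fold and the Foxa2 probes 1.88-fold and 2.14-fold. Cebpb was 2.56-fold lower on MM than on MF, Foxa3 2.54-fold and Cebpa 2.22-fold. Prox1 and Cebpb thus differed between the male and the female array in the same direction in M and in C. Foxa3 and Cebpa passed 1.5-fold between the M arrays, with differences of 0.12 and 0.28 on the log2 scale between the C arrays.

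Likeness of pattern was measured as the Euclidean distance of the centred log2 values over the 4 arrays, within the genes described and against 42 other liver transcription factors. The SD of a log2 value between replicate spots was 0.26 to 0.32 on an array. How far spot noise moves a distance or the order of the factors was not tested. Foxa3 and Cebpa were nearest to each other, at 0.34. Among the other factors both were nearest to Srebf1, the regulator of fatty acid synthesis, at 0.50 for Foxa3 and 0.68 for Cebpa. Srebf1 read -1.68 on CF, 0.79 on MF, -1.72 on CM and -1.22 on MM, so it too was highest on MF. Hnf4a was nearest to Thrb, a thyroid hormone receptor gene, with Nr2f6 level with it, both at 0.57. Foxa1 was nearest to Nr1i3, the xenobiotic receptor CAR, at 0.35 and Foxa2 to Sox9, a biliary factor, at 0.43. Cebpb was nearest to Klf15, a factor of amino acid use in fasting, at 0.38. Onecut1 was nearest to its paralogue Onecut2 at 0.66, with Rxra close behind at 0.70, distances that include the CF value not well above background. Prox1 was nearest to Hlf at 0.94.

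Of 43 other liver transcription factors compared, 11 were higher and 8 lower on MF than on CF, and 6 higher and 2 lower on MM than on CM. Over all genes read by their brightest probe, 19.9% were higher and 21.1% lower in females, and 17.7% higher and 23.1% lower in males. The medians of the 43 were 0.06 and 0.09, and those of all genes -0.04 and 0.

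By the mean of both differences the 4 highest were Srebf1 (5.54-fold higher on MF than on CF, 1.41-fold on MM than on CM), Mlxipl, the glucose-responsive factor ChREBP (3.39-fold and 1.34-fold), Thrb (2.20-fold and 1.99-fold) and Nfil3, a bZIP repressor of the clock output (2.73-fold and 1.29-fold). The 4 lowest were Esrra, Hlf, Foxm1 and Nr1i2. Esrra, an orphan receptor of mitochondrial genes, was 1.34-fold lower on MF than on CF and 2.26-fold lower on MM than on CM. In the same order Hlf, a PAR bZIP factor, was 1.68-fold and 1.26-fold lower. Foxm1, a cell cycle factor, was 1.24-fold and 1.49-fold lower. Nr1i2, the xenobiotic receptor PXR, was 1.89-fold lower on MF than on CF and 1.03-fold higher on MM than on CM. Of these 8 factors, Thrb was over 1.5-fold in the same direction in both genders.

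**Figure D3:**
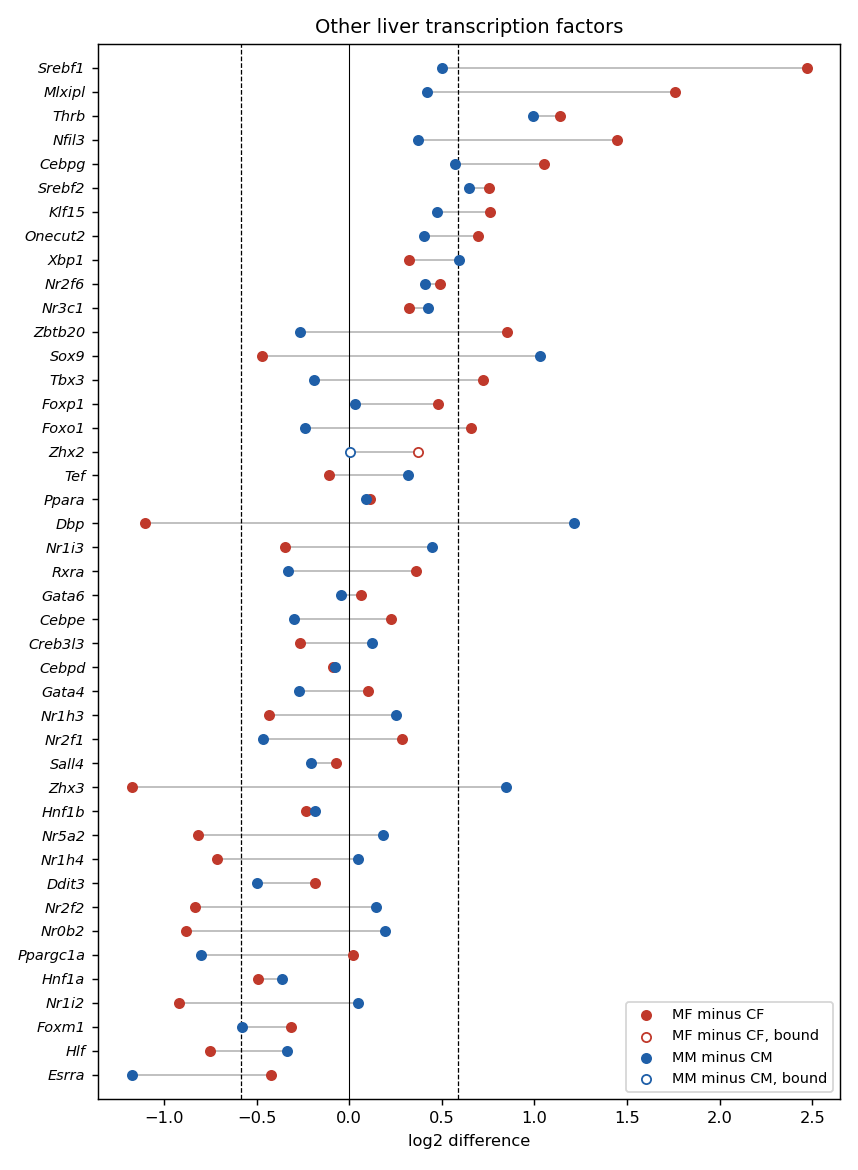
Log2 difference of MF minus CF (red) and MM minus CM (blue) for the 43 other liver transcription factors, ordered by the mean of both, 1 array per group and no replicates. Open points have 1 array of the pair not well above background, and dashed lines mark 1.5-fold. Srebf1 reaches 2.47 in females and 0.50 in males, and Esrra reaches -1.17 in males.

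Genes known as targets of these factors were read from lists of textbook examples. Over all genes read by their brightest probe, 19.9% were higher and 21.1% lower by over 1.5-fold in females. In males the shares were 17.7% and 23.1%, and both pairs stand beside the counts of every target list below. Of 16 HNF4A targets, 2 were higher and 4 lower on MF than on CF (median 0.08) and 3 were higher and 1 lower on MM than on CM (median -0.03). Apoa4, an intestinal and hepatic apolipoprotein, was higher on the M array by 1.51 on the log2 scale in females and by 3.59 in males. Tat, tyrosine aminotransferase, was 3.22-fold lower on MF than on CF, and F9, coagulation factor IX, 2.22-fold lower. Apob was 1.96-fold higher on MM than on CM.

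Of 9 FOXA targets, 2 were higher and 2 lower in females (median -0.19) and 1 was higher and 3 lower in males (median -0.48). Tdo2, tryptophan dioxygenase, was 13.4-fold lower on MF than on CF and 1.40-fold lower on MM than on CM. Shbg was 1.79-fold and 1.59-fold higher, and Afp, the fetal albumin, was 1.70-fold higher on MF than on CF and 1.73-fold lower on MM than on CM. Foxa3 was higher on both M arrays.

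Of 15 CEBPA and CEBPB targets, 6 were higher and 5 lower in females (median -0.16), and 2 were higher and 5 lower in males (median -0.43). Crp, C-reactive protein, was 2.16-fold higher on MF than on CF and Gys2, liver glycogen synthase, 1.92-fold, with log2 differences of 0.54 and 0.59 for MM minus CM. G6pc, glucose-6-phosphatase, was 2.58-fold higher on MF than on CF and 11.5-fold lower on MM than on CM. Its values were 7.06 on CF, 8.43 on MF, 8.18 on CM and 4.66 on MM, so MM stood apart from the other arrays. Orm1, an acute phase protein, was 2.20-fold and 2.12-fold lower on the M arrays. Of 7 ONECUT1 and PROX1 targets, which include Hnf4a and Foxa2 themselves, 2 were higher and 1 lower in females (median -0.05) and 2 higher and 2 lower in males (median -0.37), with Serpina1a 1.60-fold lower on MM than on CM. No target list had a median past 1.5-fold in either gender.

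**Figure D4:**
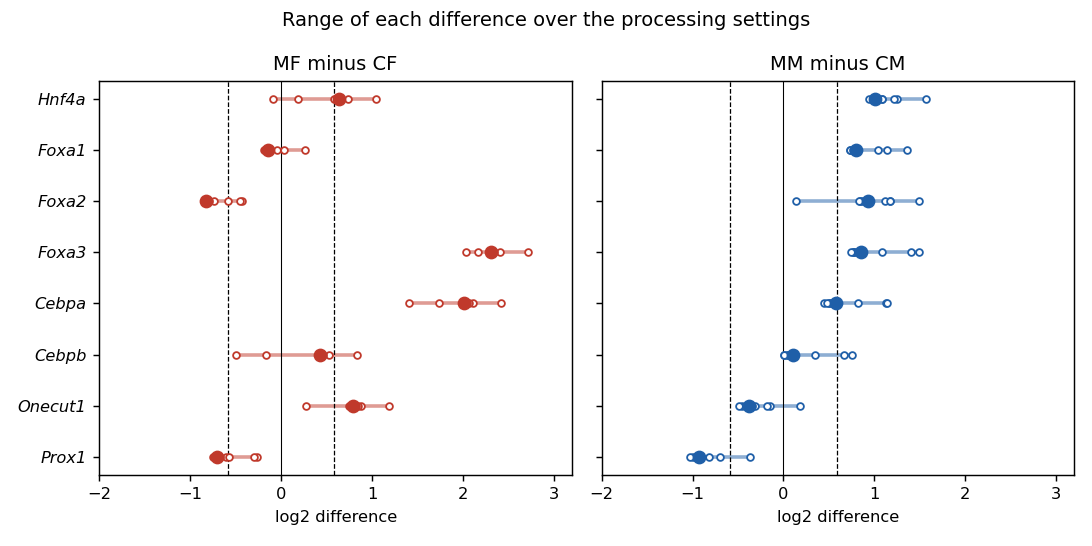
Log2 difference of MF minus CF (left) and MM minus CM (right) for each gene, by its brightest probe, as reported (filled) and under 8 other scalings, corrections or filters (open), with the range as a bar and dashed lines at 1.5-fold. Foxa3 stays past 1.5-fold throughout in both genders (2.03 to 2.72 in females, 0.75 to 1.49 in males), while Hnf4a in females runs from -0.09 to 1.04.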

How the data were processed

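Liver RNA of 4 groups was labelled with Cy3 and hybridized to single-colour Agilent arrays by the authors, and the deposited values are linear intensities per spot from Agilent Feature Extraction 10.7.3.1, background subtracted and detrended but not scaled between arrays. From it the log2 of the signal minus the 75th percentile of non-control spots was computed, 1754 spots that the software flagged as outliers on some array were dropped everywhere, and spots of a probe were averaged. A gene outside the members was read by its brightest probe. A probe was counted when well above background on at least 1 array of the pair and over 1.5-fold different. Where the other array was not, the difference was taken against the higher of the lowest signal well above background there and its own signal. Where that difference ran against the array well above background, it was set to no difference, and it enters the medians as such. limma 3.58.1 (R 4.3.3) was fitted with M or C and gender as terms, with 1 residual degree of freedom, over probes well above background on all 4 arrays, with Benjamini-Hochberg adjustment at 0.05. The residual is how far M minus C differs between the genders, so the p-values and SE do not measure the spread between animals of a group. The counting and the fit were tested on simulated data. The changes planted for the fit were larger than any difference of these genes. Whether the fit could call changes of their size was not tested. Depth does not apply to arrays, whose number limits the precision.

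The members and lists were chosen with earlier results of these data known. From the other transcription factors the 4 highest and 4 lowest by the mean of both differences and the nearest to each member were named, and from each target or marker list up to 4 genes, the 2 highest and 2 lowest. The lists covered other liver transcription factors, targets of each factor, and markers of hepatocytes, biliary cells and hepatoblasts, myeloid, erythroid and endothelial cells, intestine, exocrine pancreas and heart muscle. Python 3.11.15 drew the figures. Other settings tried were median centring, quantile normalization, normexp (offset 50) with quantile normalization, no scaling, the 75th percentile of spots above background, other filters, probes and thresholds, and for limma an intensity trend, no gender term and the thresholds of the methods. Removal of a trend with array position (a cubic surface) and with the number of windows of 5 bases rich in C and T in the probe was added after seeing the data.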

Additional observations from a re-analysis of the deposited data

Results flagged for a closer look

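The probes of Foxa1, Foxa2 and Onecut1 had M minus C values of opposite sign in the genders, which set them apart for a closer look. The log2 difference of MM minus CM less that of MF minus CF was 0.94 for Foxa1, 1.48 for Foxa2 probe A_55_P2067533, 1.76 for Foxa2 probe A_55_P2134236 and -1.17 for Onecut1. With 1 array per group the difference was not tested. In Foxa1 and in Foxa2 probe A_55_P2067533 the female value lay within the SD between replicate spots (-0.14 and -0.07), and in Onecut1 the male value did (-0.38). Foxa2 probe A_55_P2134236 gave -0.83 in females and 0.93 in males, but 0.14 in males with normexp and quantile normalization. The SD between spots holds no spread between animals or arrays, so an opposite direction is shown for none of these probes. Unscaled, the Foxa1 value in females was 0.26 and the Onecut1 value in males 0.18.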

How the results depend on the processing

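Of 128 values of the differences under other settings, 109 moved by less than the SD between replicate spots, 18 moved by more, and 1 difference past 1.5-fold changed sign, Hnf4a in MF minus CF, at -0.088 with quantile normalization (the cause was not tested). Differences under 1.5-fold also changed sign: Cebpb in females was -0.16 with quantile normalization and -0.50 with normexp and quantile normalization, Foxa1 in females 0.03 with the latter and 0.26 unscaled, and Onecut1 in males 0.18 unscaled. Unscaled, all differences rise by 0.40 in females and 0.56 in males, and centring on the median raises those in males by 0.24. The count of member probes past 1.5-fold was 2 in females with normexp and quantile normalization, where 28.9% of all probes were past it. At 2-fold the count was 2 in females and 2 in males, in place of 6 and 6, against 19.8% and 23.0% of all probes. limma called 0 member probes in every alternative, and over all probes 13 with median centring and 36 unscaled. In limma, unadjusted p under 0.01 with over 1.5-fold gave 210 probes, with 0 members. The t-test with the genders pooled gave 90 at that threshold, with 0 members. With the trends of position and of C and T windows removed, both chosen after seeing the data, the counts were 5 and 6 in females and 6 and 6 in males. The share of all probes past 1.5-fold was then between 41.0% and 41.7%. Signal limits Onecut1, which was not well above background on CF. With the gender term, limma estimates an M minus C difference common to both genders, and without that term 0 member probes were called as well. The labels give no replicate numbers to use as a block.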
